A study of Mus musculus with 6 samples.

Results

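The nuclear receptor superfamily without its Nr4a branch was examined in MLO-Y4 cells, a mouse cell line with osteocyte-like features. The 43 receptors were taken by name from a list of the superfamily, and each matched exactly 1 of the 53797 genes in the table. The measured RNA came from 3 cultures stimulated with low-intensity pulsed ultrasound (LIPUS) for 20 min at 1.5 MHz and 30 mW/cm2, and from 3 untreated Control cultures, all in medium with serum and no added receptor ligand named in the sources. Stimulated and Control cells were grown in the same multi-well plates, with the transducers under the Control wells unplugged, and RNA was taken 30 min after the stimulation ended. The question was which of these receptors the cells express and whether their levels differed with LIPUS.

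The table holds a single FPKM (sequenced fragments scaled to exon length and to library size) for each group, pooled by the authors over its 3 cultures. No value of a single culture was analysed here, so no SD, interval or p-value stands behind any difference below, and the table does not give the number of fragments behind each value. The study describes a Control culture that stood apart from the others of its group, and the pooled Control value includes it, so no comparison below could be made without it. The study proposes leakage of ultrasound into Control cells on the shared plate as a possible reason, which was not tested here. A difference was described by the log2 ratio of LIPUS over Control after adding 1 FPKM to both values, which understates the ratio of weakly expressed genes. A gene was called expressed at an FPKM of at least 1 in 1 or both groups, and called higher or lower where the ratio reached 1.5-fold (0.58 on the log2 scale). Such a call is a rule of size and not a test.

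Nuclear receptors are transcription factors, many of which are switched by small lipophilic ligands such as steroids, retinoids, thyroid hormone, fatty acids and oxysterols. Vdr, the receptor of the active form of vitamin D, binds DNA together with a retinoid X receptor (RXR), as do the thyroid hormone, retinoic acid, PPAR and LXR receptors. Unliganded receptors of this kind recruit corepressors, and ligand binding exchanges these for coactivators. In bone, vitamin D signalling in osteoblasts and osteocytes bears on mineral balance and on the signals sent to osteoclasts.

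The osteocyte-like label was checked on 9 marker genes, of which 4 were expressed. Gja1, Cd44 and Pdpn, coding for a gap junction protein and surface glycoproteins, were at 176, 200 and 295 FPKM in Control. Dmp1, a matrix protein of osteocytes, was at 3.04 FPKM in Control and 7.65 FPKM with LIPUS. Sost, Mepe and Fgf23 were listed at 0 in both groups, and Phex and Mef2c stayed under 1 FPKM, so these markers of mature osteocytes were at or near 0 in this line. Of 6 osteoblast genes, 5 were expressed. Col1a1 and Alpl were at 891 and 293 FPKM in Control, and Runx2 and Sp7 at 24.4 and 5.86 FPKM. Bglap was listed at 0 in Control and at 1.58 FPKM with LIPUS. Of 8 genes of osteoclasts, blood, endothelial, fat, muscle, cartilage and epithelial cells, 4 were listed at 0 in both groups and only Acp5 reached 1 FPKM, at 0.204 FPKM in Control and 1.10 FPKM with LIPUS.

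Of the 43 nuclear receptors, 23 (53.5%) were expressed, against 22.3% of all genes in the table. The table also lists non-coding genes such as antisense transcripts, so these shares are not over like sets of genes. Among the expressed receptors, 2 were called lower with LIPUS (Vdr and Nr6a1), against 6.79% of the 11999 expressed genes, and 2 were called higher (Nr1d1 and Nr2f1), against 6.70% of them. The remaining 19 lay within 1.5-fold. The log2 ratio was below 0 for 11 of the expressed receptors and above 0 for 12, with a median of 0.012, beside a median of -0.00038 over all expressed genes. The median size of the log2 ratio, regardless of sign, was 0.29 for the receptors and 0.20 for all expressed genes. The higher of both values was at least 20 FPKM for 12 of the expressed receptors, from 5 to under 20 FPKM for 5 and under 5 FPKM for 6. Their median FPKM was 18.8 in Control and 20.5 with LIPUS, against 12.4 and 12.5 for all expressed genes.

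**Figure D1:**
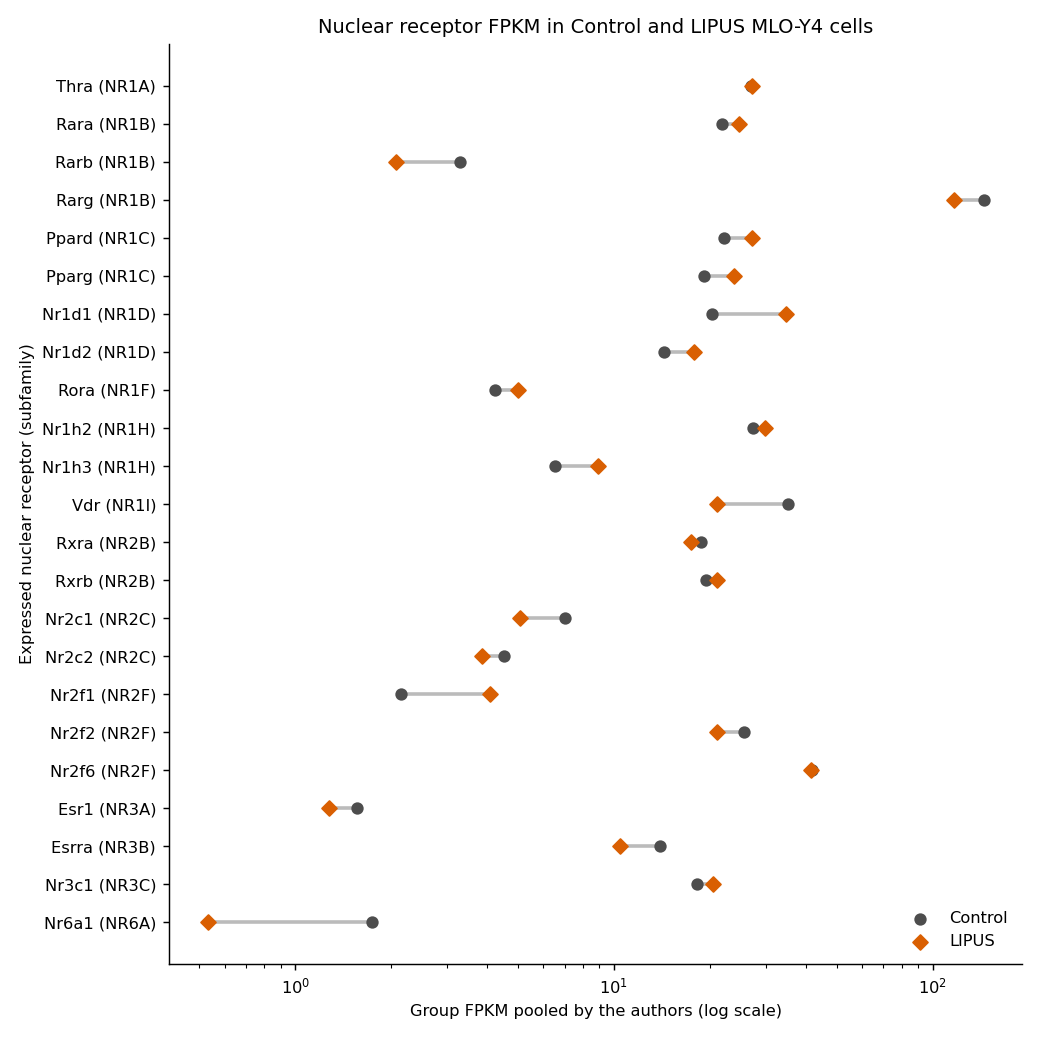
FPKM of the 23 expressed nuclear receptors on a log scale (x axis), with Control as grey circles, LIPUS as orange diamonds and the receptor with its subfamily on the y axis. Vdr moves from 35.3 FPKM in Control to 21.1 FPKM with LIPUS, Nr1d1 from 20.4 to 34.7 FPKM, and Rarg stands apart from the other receptors at over 100 FPKM in both groups.

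How often a gene passed 1.5-fold depended on its level. Among genes whose higher FPKM was from 20 to under 50, which holds Vdr and Nr1d1, 3.34% were called lower and 3.34% higher. Among genes with a higher FPKM from 1 to under 5, which holds Nr6a1 and Nr2f1, these shares were 12.9% and 13.3%. The calls of Nr6a1 and Nr2f1 therefore stand among genes where such a difference was common.

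**Figure D2:**
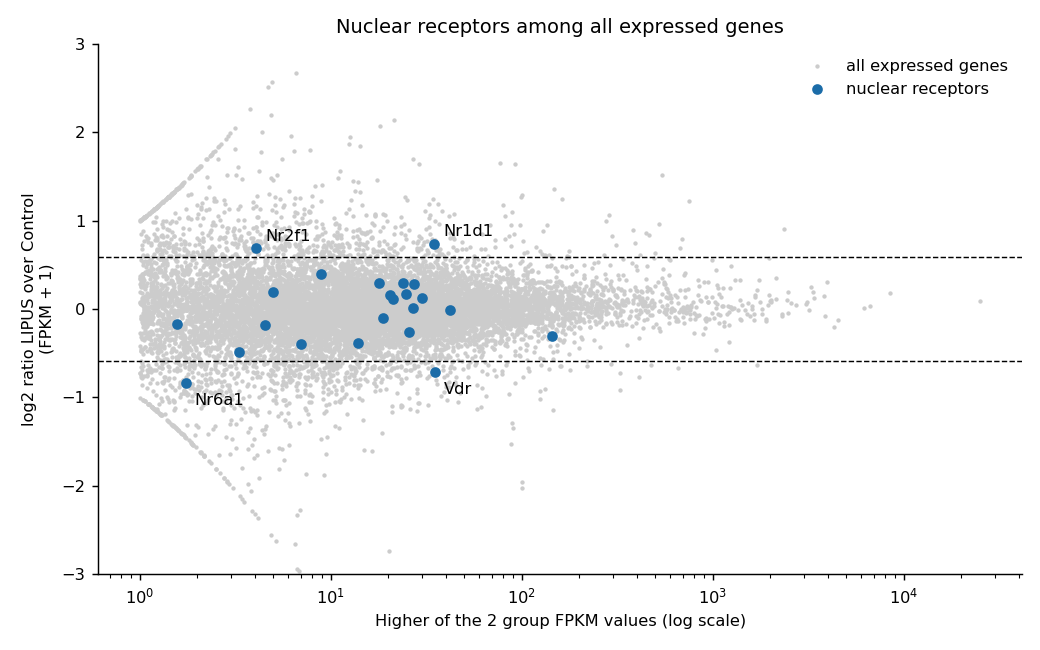
The log2 ratio of LIPUS over Control with 1 FPKM added (y axis) against the higher of both FPKM values on a log scale (x axis), with all expressed genes in grey, the nuclear receptors in blue and dashed lines at 1.5-fold. Vdr and Nr1d1 lie outside the lines in a range where few genes do, while Nr2f1 and Nr6a1 lie where the grey cloud is wide, and 22 genes with a log2 ratio beyond 3 in size are not drawn.

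Vdr is the one receptor of its subfamily above 0 in these cells. Its FPKM was 35.3 in Control and 21.1 with LIPUS, a difference of -40.2% and a log2 ratio of -0.72. In the order of receptor levels Vdr stood at rank 3 in Control and at rank 10 with LIPUS, although neighbouring ranks differ by little and have no error attached. The 2 other members of its branch, the xenobiotic receptors Nr1i2 (PXR) and Nr1i3 (CAR), were listed at 0 in both groups. Of the 5 expressed osteoblast genes, 2 were also called lower and 1 higher, against 6.79% and 6.70% of all expressed genes. Runx2, the main osteoblast transcription factor, was called lower at 24.4 and 14.8 FPKM, and Alpl, coding for alkaline phosphatase, was called lower at 293 and 190 FPKM. Sp7 and Col1a1 had log2 ratios of -0.53 and -0.29, Ibsp was listed at 0, and Bglap was listed at 0 in Control and at 1.58 FPKM with LIPUS. The part of these genes in the difference of Vdr was not tested, and in RNA of whole cultures fewer cells of a type and less RNA per cell cannot be told apart. Vdr lies on chromosome 15 of GRCm38 from 97854425 to 97910630 on the minus strand, and no exon of another gene listed above 0 overlapped its exons.

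Nr1d1 (REV-ERB alpha), a heme-binding repressor of the circadian clock, showed a difference of opposite sign and similar size. Its FPKM was 20.4 in Control and 34.7 with LIPUS, a difference of 70.4% and a log2 ratio of 0.74. Its paralogue Nr1d2 (REV-ERB beta) was at 14.4 and 17.8 FPKM, a log2 ratio of 0.29, so that Nr1d1 made up 58.6% of the summed REV-ERB FPKM in Control and 66.1% with LIPUS. Nr1d1 stood at rank 9 among the receptors in Control and at rank 3 with LIPUS. It lies on chromosome 11 of GRCm38 from 98767932 to 98775333 on the minus strand. Rora, an activator that competes with REV-ERB for the same DNA sites, was at 4.23 and 5.00 FPKM, and Rorb was listed at 0.

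The windows before the annotated starts of Vdr and Nr1d1 are shown because these were the receptors past 1.5-fold with the highest FPKM. The windows are from RefSeq on GRCm38.p6 and are written 5′ to 3′ along the gene's minus strand. Vdr spans chr15:97908311-97908546, from which 14 bases next to the start that other transcripts hold as exon were left out, and Nr1d1 spans chr11:98775378-98775627. The Vdr window lies before the start of one annotated transcript and within an intron of longer ones that begin further upstream. The RefSeq start of Nr1d1 lies upstream of its start in GENCODE, the annotation of the gene positions above, which is at 98775333. The bases after that RefSeq start were found in no GENCODE transcript of Nr1d1, whereas those after the Vdr start were found in a Vdr transcript. Capitals mark matches to any of 6 motifs, searched on both strands.

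Vdr: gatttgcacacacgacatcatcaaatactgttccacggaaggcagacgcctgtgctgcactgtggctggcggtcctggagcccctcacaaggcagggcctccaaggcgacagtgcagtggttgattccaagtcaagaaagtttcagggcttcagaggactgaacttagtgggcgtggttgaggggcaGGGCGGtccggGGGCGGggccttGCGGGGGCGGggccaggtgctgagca

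Nr1d1: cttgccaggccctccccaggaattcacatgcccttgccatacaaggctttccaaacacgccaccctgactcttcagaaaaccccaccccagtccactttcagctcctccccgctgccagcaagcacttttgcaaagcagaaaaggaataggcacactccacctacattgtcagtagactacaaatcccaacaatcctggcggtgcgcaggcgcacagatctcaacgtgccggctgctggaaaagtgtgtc

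The Vdr window held 1 match to the motif of the EGR zinc finger factors (GCGNGGGCG), from 40 to 32 bases before the start, and 3 GC boxes (GGGCGG), one of which overlaps the EGR motif. Of all 32851 windows of 250 bases in the reference table, 4.70% held the EGR motif and 32.7% a GC box. The Nr1d1 window held neither, and neither window held the nuclear receptor half-site (AGGTCA, in 14.0% of all windows), an E-box (CACGTG, 6.02%), a cAMP response element (TGACGTCA, 1.55%) or an AP-1 site (TGANTCA, 6.75%). Windows were found for 21 of the 23 expressed receptors, 33 in all since some genes have several starts. Besides Vdr, the EGR motif occurred before Rarg, Ppard and Nr2f6, whose log2 ratios were -0.30, 0.29 and -0.01. The half-site occurred in 6 of the 33 windows, before Nr1d2, Nr6a1, Pparg, Rarg and Rxra. A match describes the letters and is not evidence of binding.

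The obligate partners of Vdr were near level in both groups. Rxra was at 18.8 FPKM in Control and 17.4 FPKM with LIPUS, a log2 ratio of -0.10. Rxrb was at 19.4 and 21.0 FPKM, a log2 ratio of 0.11, and Rxrg at 0.165 and 0.299 FPKM was not counted as expressed. The summed RXR FPKM was 38.4 in Control and 38.7 with LIPUS, shared about evenly between Rxra and Rxrb. In Control the FPKM of Vdr lay above that of either partner, and with LIPUS the values of Vdr and Rxrb were 21.1 and 21.0 FPKM.

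Rarg, a receptor of retinoic acid, was the most abundant nuclear receptor in both groups. It was at 145 FPKM in Control and 117 FPKM with LIPUS, a log2 ratio of -0.30, and made up 85.2% and 81.4% of the summed FPKM of the retinoic acid receptors. Rara was at 21.9 and 24.7 FPKM. Rarb, itself a well known retinoic acid target, was at 3.29 and 2.08 FPKM with a log2 ratio of -0.48, and passed 1.5-fold only when the added value was 0.1 FPKM or none. Retinoic acid receptors thus held the largest summed FPKM of any subfamily, 170 in Control and 144 with LIPUS. Exons of Top2b on the other strand cover 34.1% of the exonic bases of Rarb, and Top2b was at 28.6 and 29.3 FPKM. The libraries were stranded, but whether the FPKM used the strand is not given in the sources used here, so reads in such overlaps could belong to either gene.

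**Figure D3:**
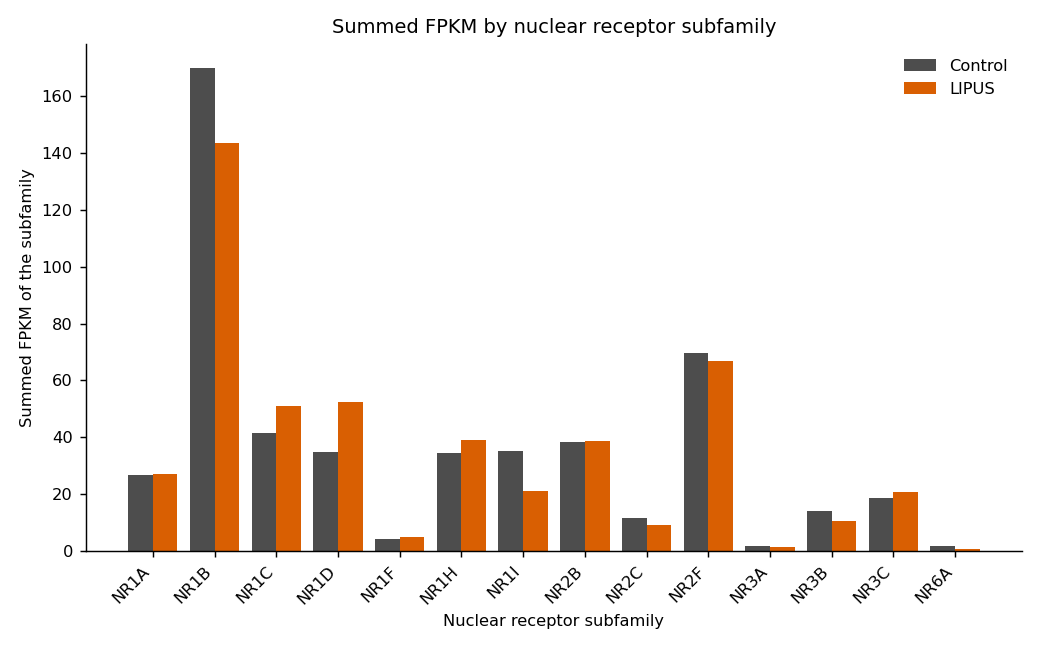
Summed FPKM (y axis, from 0) of each nuclear receptor subfamily with an expressed member (x axis), with Control in grey and LIPUS in orange. NR1B, the retinoic acid receptors, is tallest at 170 and 144 FPKM, NR1I, which is Vdr alone, goes from 35.3 to 21.1 FPKM, and NR1D, the REV-ERB pair, from 34.7 to 52.5 FPKM.

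The expressed receptors of fatty acids and oxysterols had ratios above 0, and all 4 lay within 1.5-fold. Ppard was at 22.1 FPKM in Control and 27.2 FPKM with LIPUS, and Pparg, the main regulator of adipocyte differentiation, at 19.2 and 23.8 FPKM. Their log2 ratios were 0.29 and 0.30, and Ppara was listed at 0. The LXR genes Nr1h2 and Nr1h3, sensors of oxysterols, were at 27.3 and 29.9 FPKM and at 6.52 and 8.92 FPKM, with log2 ratios of 0.13 and 0.40. The bile acid receptor Nr1h4 (FXR) was at 0.542 and 0.361 FPKM, under the limit for expression.

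Among thyroid hormone and steroid receptors, Thra and Nr3c1 had the highest FPKM. Thra was at 26.8 FPKM in Control and 27.1 FPKM with LIPUS, and Thrb was listed at 0. Nr3c1, the glucocorticoid receptor, was at 18.3 and 20.5 FPKM, a log2 ratio of 0.16, and the mineralocorticoid receptor Nr3c2 was at 0.309 and 0.149 FPKM. Esr1, the main estrogen receptor of bone, was at 1.56 and 1.28 FPKM, close to the limit for expression. Esr2 and the progesterone receptor Pgr were listed at 0 in both groups. Of the orphan receptors related to the estrogen receptors, Esrra, a regulator of mitochondrial genes, was at 13.9 and 10.4 FPKM with a log2 ratio of -0.39, and Esrrb and Esrrg were listed at 0.

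The COUP-TF branch of orphan receptors was the second most abundant subfamily, with 69.6 FPKM in Control and 66.8 FPKM with LIPUS. Nr2f6 was at 41.9 and 41.7 FPKM and Nr2f2 (COUP-TFII) at 25.5 and 21.1 FPKM. Nr2f1 (COUP-TFI) was called higher, at 2.15 and 4.07 FPKM with a log2 ratio of 0.69, and made up 3.09% of the branch in Control and 6.09% with LIPUS. Exons of Ocel1 on the other strand cover 54.4% of the exonic bases of Nr2f6, at 4.15 and 6.79 FPKM.

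The remaining orphan receptors were weakly expressed. Nr2c1 (TR2) was at 7.00 FPKM in Control and 5.09 FPKM with LIPUS, a log2 ratio of -0.39, and Nr2c2 (TR4) at 4.53 and 3.87 FPKM, a log2 ratio of -0.18. Exons of Mrps25 on the other strand, a gene at 36.3 and 38.6 FPKM, cover 30.7% of the exonic bases of Nr2c2. Nr6a1 (GCNF), a repressor best known from germ cells and early embryos, was called lower at 1.74 and 0.530 FPKM, with a log2 ratio of -0.84 that was -1.71 with no added value. Hnf4a, Hnf4g, Nr2e1, Nr2e3, Nr5a1, Nr5a2, Nr0b1 and Nr0b2, known mainly from liver, gut, brain, retina and steroid-producing tissue, were listed at 0 in both groups. In all, 17 receptors were listed at 0 and 3 lay above 0 but under 1 FPKM. An entry of 0 says that no level was listed. None of 15 widely expressed genes that were checked was listed at 0 in either group.

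On both chromosome 11 and chromosome 14, a thyroid hormone receptor, a REV-ERB gene and a retinoic acid receptor lie near each other, in a different order on each. On chromosome 11, Thra on the plus strand and Nr1d1 on the minus strand overlap by 1075 bases at their 3′ ends, and Rara begins 152484 bases further on. Their log2 ratios were 0.01, 0.74 and 0.16, so the difference of Nr1d1 was not shared by either neighbour. The exons of Thra and Nr1d1 share 263 bases, 8.55% of the exonic bases of Nr1d1, and the FPKM of Thra differed by less than 1 between the groups. On chromosome 14, Rarb, Thrb and Nr1d2 had FPKM values of 3.29 and 2.08, of 0 in both groups, and of 14.4 and 17.8. Nr5a1 and Nr6a1, 8827 bases apart on chromosome 2, were listed at 0 in both groups and at 1.74 and 0.530 FPKM.

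The coregulators through which these receptors act were nearly all expressed, 26 of the 28 on the list. Of these, 2 were called lower (Cited2 and Nrip1) and 1 higher (Ncoa3), against 6.79% and 6.70% of all expressed genes. The log2 ratio was below 0 for 20 and above 0 for 6, with a median of -0.16, against -0.00038 over all expressed genes. Cited2, which binds the coactivators CBP and p300, was at 180 FPKM in Control and 111 FPKM with LIPUS, a log2 ratio of -0.69. Nrip1 (RIP140), a ligand-dependent corepressor, was at 6.02 and 3.49 FPKM, a log2 ratio of -0.64. Ncoa3, a steroid receptor coactivator, was at 8.02 and 14.2 FPKM, a log2 ratio of 0.75, while its relatives Ncoa1 and Ncoa2 had log2 ratios of -0.02 and -0.19. The corepressor Ncor1 was among the most abundant genes of the list, at 62.8 and 73.9 FPKM with a log2 ratio of 0.23. Ppargc1a and Ppargc1b, coactivators of mitochondrial genes, stayed under 1 FPKM.

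**Figure D4:**
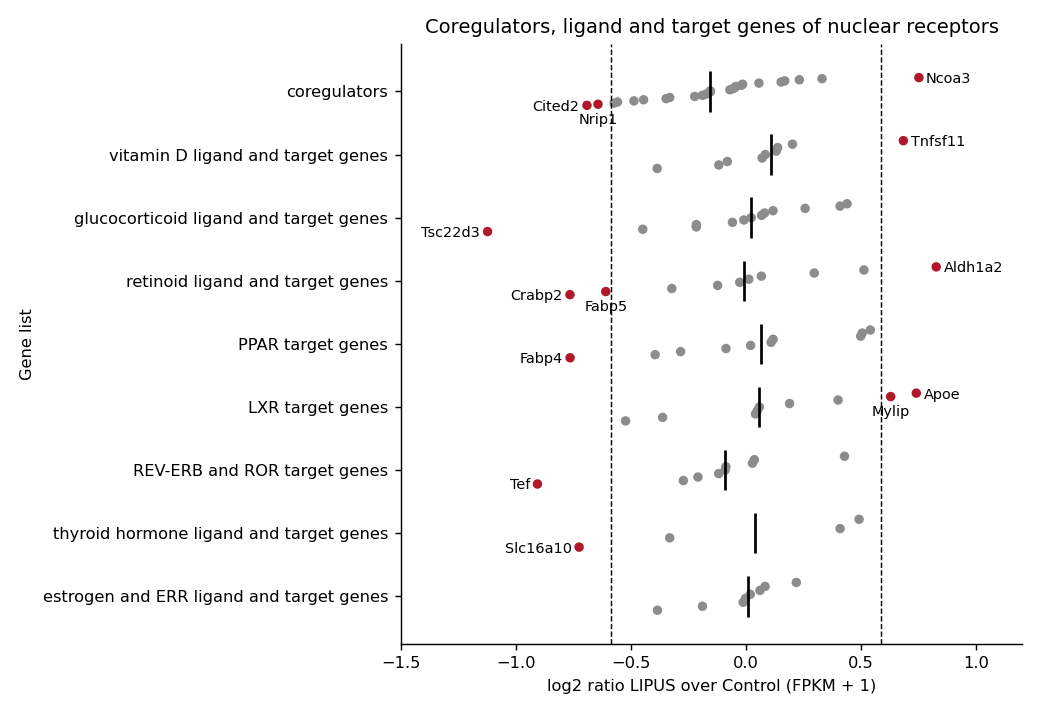
The log2 ratio of LIPUS over Control with 1 FPKM added (x axis) for expressed genes of the coregulator list and of the 8 ligand and target lists (y axis), where red points with names passed 1.5-fold (dashed lines), grey points did not, and black bars are list medians. The coregulators lie mostly left of 0 with a median of -0.16, and the medians of the 8 other lists lie between -0.09 and 0.11. Bglap, listed at 0 in Control, is left out of the points but counted in the vitamin D median.

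Of 18 genes of vitamin D metabolism and known vitamin D targets, 10 were expressed, 0 were called lower and 2 higher, against 6.79% and 6.70% of all expressed genes. Both genes called higher were under 5 FPKM, where 13.3% of genes were called higher, and 0 were called higher among genes of at least 5 FPKM. Cyp24a1, the enzyme that degrades vitamin D and the most responsive Vdr target, was listed at 0 in both groups, and Cyp27b1, which makes the active hormone, was at 0.112 FPKM in Control and 0.197 FPKM with LIPUS. Tnfsf11, coding for the osteoclast factor RANKL, was called higher at 2.23 and 4.19 FPKM, a log2 ratio of 0.68. Bglap, coding for osteocalcin, was listed at 0 in Control and at 1.58 FPKM with LIPUS, and its near-identical copy Bglap2 was at 1.57 and 1.43 FPKM, so the share of reads given to either is uncertain. Spp1, Thbd, Pdia3 and Cdkn1a, the most abundant genes of this list, had log2 ratios of -0.12, 0.20, 0.08 and 0.14. The list's median was 0.11.

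Of the 18 retinoid genes, 10 were expressed, 2 were called lower and 1 higher, against 6.79% and 6.70% of all expressed genes. Crabp2, which carries retinoic acid to its receptors, was at 39.2 FPKM in Control and 22.6 FPKM with LIPUS, a log2 ratio of -0.77. Fabp5, which can carry retinoic acid and fatty acids to Ppard, was at 8.27 and 5.07 FPKM, a log2 ratio of -0.61. Aldh1a2, which makes retinoic acid, was at 5.56 and 10.6 FPKM, a log2 ratio of 0.83. The genes of this list that passed 1.5-fold were thus 2 carriers on the lower side and 1 enzyme of synthesis on the higher side. Dhrs3 and Tgm2, also retinoid genes, had log2 ratios of 0.07 and 0.30. Cyp26b1, which degrades retinoic acid, was at 0.633 and 1.33 FPKM, and the median of the list was -0.01.

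The glucocorticoid list held 13 expressed genes, with 1 called lower and 0 higher, a share near the 6.79% of all expressed genes called lower. Tsc22d3 (GILZ), a direct glucocorticoid target, was at 7.28 FPKM in Control and 2.80 FPKM with LIPUS, a log2 ratio of -1.12. Fkbp5, another direct target, was at 15.9 and 19.2 FPKM, a log2 ratio of 0.26, Per1 at 9.75 and 9.68 FPKM, and Sgk1 at 907 and 780 FPKM, so these targets did not share a direction. The receptor chaperone genes Hsp90ab1 and Hsp90aa1 had log2 ratios of -0.06 and 0.02, and Errfi1, a feedback inhibitor of the EGF receptor, one of 0.44. The median of the list was 0.02.

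Of the PPAR targets, 10 of 14 were expressed, with 1 called lower and 0 higher, against 6.79% and 6.70% of all expressed genes. Fabp4, a fatty acid carrier, was at 52.3 FPKM in Control and 30.4 FPKM with LIPUS, a log2 ratio of -0.76. Acadm and Ucp2, the most abundant genes of this list, had log2 ratios of -0.09 and 0.02. Plin2, Lpl and Pdk4, genes of lipid storage and fuel use, had log2 ratios of 0.50, 0.50 and 0.54, just inside the limit, and Angptl4 had one of -0.40. With an added value of 0.1 FPKM or none, 1 gene of this list was called higher, Pdk4 at 1.96 and 3.30 FPKM. Of the LXR targets, 9 of 13 were expressed, with 0 called lower and 2 higher, against 6.79% and 6.70% of all expressed genes. These were Apoe at 3.20 and 6.02 FPKM and Mylip at 1.39 and 2.69 FPKM, with log2 ratios of 0.74 and 0.63. Mylip was under 5 FPKM, where 13.3% of genes were called higher, and 1 LXR target was called higher among genes of at least 5 FPKM. Abca1, the cholesterol exporter most closely tied to LXR, stayed under 1 FPKM, and the lipid synthesis genes Scd1 and Fasn had log2 ratios of 0.06 and -0.36.

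For the clock genes read by REV-ERB and ROR, 9 of 11 were expressed, with 1 called lower and 0 higher, against 6.79% and 6.70% of all expressed genes. Tef, a clock output factor, was at 28.2 FPKM in Control and 14.6 FPKM with LIPUS, a log2 ratio of -0.91. Arntl (BMAL1), the classical target that Nr1d1 represses, was at 15.3 and 12.5 FPKM, a log2 ratio of -0.27, and Clock had one of -0.12. The most abundant gene of this list, Bhlhe40, had a log2 ratio of 0.43. Of the 10 thyroid hormone genes 4 were expressed, with 1 called lower and 0 higher, against 6.79% and 6.70% of all expressed genes. Slc16a10, a transporter of thyroid hormone, was called lower at 2.34 and 1.02 FPKM. It was under 5 FPKM, where 12.9% of genes were called lower, and 0 were called lower among genes of at least 5 FPKM. Me1 and Klf9, classical thyroid hormone targets, had log2 ratios of 0.49 and 0.41. Of the 14 genes of the estrogen and ERR list 13 were found by symbol and 8 were expressed, and all of these lay within 1.5-fold. The most abundant of them, the mitochondrial genes Atp5b and Cycs, had log2 ratios of -0.0022 and 0.22. Over these target and coregulator lists, 95 expressed genes that are no members held 8 called lower and 6 higher, close to the 6.79% and 6.70% of all expressed genes. The Nr4a receptors, kept apart from the members, were called higher for 3 of 3 genes, from 44.8 to 87.5 FPKM for Nr4a1.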

How the data were processed

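RNA of 6 MLO-Y4 cultures, 3 per group, was sequenced from stranded mRNA libraries. Samples were grouped by the treatment in their labels. According to the methods and the submitters' processing notes, the authors trimmed reads with Trimmomatic 0.36 and aligned them to GRCm38 with TopHat2 2.1.0 and Bowtie2 2.2.6.0. The authors computed FPKM with Cufflinks (2.1.1 in the notes, another release in the methods) and deposited a Cuffdiff table with 1 FPKM per group, pooled over its cultures. That table also holds the authors' fold changes, test statistics, p-values and q-values, which were not used here. The methods state a read number per sample, but the fragments behind each FPKM cannot be read from the table.

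Expressed genes had an FPKM of at least 1 in 1 or both groups, and calls were made at 1.5-fold after adding 1 FPKM. No test was run. Of the expressed genes, 222 are listed at 0 in 1 group and count as called, 102 lower and 120 higher. The shares by FPKM range were chosen after seeing the data. All members are accounted for, and of each list the genes past 1.5-fold and up to 4 of the most abundant are named, besides a few named for their known role after their values were seen. The values of 1 coregulator are not reported here. The members and lists were chosen with earlier results of these data known. Gene positions and exons are from GENCODE M21 and windows from RefSeq, by symbol. The calling step was tested on simulated data. Python 3.11.15, numpy 2.4.6, pandas 2.3.3 and matplotlib 3.10.9 were used. Alternatives were other added values, filters, thresholds and scalings.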

Additional observations from a re-analysis of the deposited data

How the results depend on the processing

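Vdr had a log2 ratio from -0.74 to -0.72 under the other added values and scalings tried, and Nr1d1 stayed past 1.5-fold on the higher side under these as well. The counts of called receptors depended on the threshold and the filter. With an FPKM of at least 5 in 1 or both groups, 1 receptor was called lower (Vdr) and 1 higher (Nr1d1), since Nr6a1 and Nr2f1 lie under that filter, against 4.74% and 4.47% of all genes it leaves. At a lower limit of 0.32 on the log2 scale, 5 receptors were called lower and 3 higher, and at 2-fold 0 were called lower and 0 higher. Over all genes, these thresholds called 16.3% lower and 15.8% higher, and 2.08% lower and 2.16% higher. With an added value of 0.1 FPKM or none, Rarb was called lower too, and the coregulators called lower numbered 4, while the share of all genes called lower was 9.26% or 9.59%. With no added value the log2 ratios of Nr6a1 and Nr2f1 were -1.71 and 0.92. The median log2 ratio of the expressed receptors ranged from 0.0023 to 0.11. The number of expressed receptors was 24 at an FPKM of at least 0.5, 22 at 1 in both groups and 17 at 5. No paired analysis was possible because the table gives 1 pooled value per group, and for the same reason no culture could be left out. The spread between cultures, including the Control culture that the study describes as standing apart, is not in the pooled values, and no difference was set against it here.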
